A study of Mus musculus with 6 samples.

Results

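The genes described here are the negative arm of the circadian clock and the kinases that act on it: Per1, Per2, Per3, Cry1, Cry2, Ciart, Csnk1d and Csnk1e. They were chosen by symbol, and all 8 were found among the 31053 genes of each deposited matrix. The data are droplet-based single-cell transcriptomes of YUMM2.1, a mouse melanoma line, and the immune and stromal cells found with it. The Empty vector group carried a control vector and the Bmal1 WT group wild-type Bmal1, with 3 hashtagged replicates each. The hashtags were h1, h7 and h8 (Empty vector replicates 1, 2 and 3) and h3, h5 and h9 (Bmal1 WT replicates 1, 2 and 3). The study made such lines both in native YUMM2.1 and in its Bmal1-null clone aC3, but the labels did not say which background, host, age, tissue or time of day these cells had. The 3 hashtags of each group went through 1 droplet channel. Group and channel therefore cannot be told apart, and p-values measure the spread between hashtagged samples only. The files given for the third group, Bmal1 bHLH, copied those of Bmal1 WT and were not used.

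In the clock, the transcription factors CLOCK and BMAL1 bind E-box elements and switch on Per and Cry genes, whose proteins return to the nucleus and hold that pair in check. PER1, PER2 and PER3 are the period proteins, CRY1 and CRY2 the main repressors, and CIART (CHRONO) a further repressor of CLOCK and BMAL1. Casein kinases 1 delta and epsilon, from Csnk1d and Csnk1e, phosphorylate PER proteins and so set their stability and the length of the cycle. Per1 is also an immediate early gene, which cAMP signalling and glucocorticoids can raise within minutes.

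Promoter windows from RefSeq (GRCm38.p6, 250 bases before to 50 after a transcript's start) were found for 6 of the 8 members, all but Per2 and Csnk1d. They are shown because an E-box or D-box in them is the element through which clock factors are known to read such genes. Capitals mark every match, on either strand, to the E-box CACGTG, the variant E-box CACGTT, the cAMP response element TGACGTCA or the D-box TTATGTAA or TTACGTAA. Each sequence is given in the direction of transcription.
Ciart, chr3:95882179-95882478, minus strand: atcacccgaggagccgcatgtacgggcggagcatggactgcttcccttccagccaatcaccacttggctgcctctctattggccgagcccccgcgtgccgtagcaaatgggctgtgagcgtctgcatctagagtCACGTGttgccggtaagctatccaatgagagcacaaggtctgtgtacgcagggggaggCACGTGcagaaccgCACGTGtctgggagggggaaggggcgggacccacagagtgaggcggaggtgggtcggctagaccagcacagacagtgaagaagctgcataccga
Per1, chr11:69098699-69098998, plus strand: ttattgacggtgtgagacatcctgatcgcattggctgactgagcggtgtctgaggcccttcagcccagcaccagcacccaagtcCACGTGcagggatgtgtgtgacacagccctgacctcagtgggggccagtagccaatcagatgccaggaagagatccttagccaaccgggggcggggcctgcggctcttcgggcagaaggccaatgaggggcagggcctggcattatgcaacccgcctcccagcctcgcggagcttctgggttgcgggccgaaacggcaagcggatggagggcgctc
Cry1, chr10:85185005-85185304, minus strand: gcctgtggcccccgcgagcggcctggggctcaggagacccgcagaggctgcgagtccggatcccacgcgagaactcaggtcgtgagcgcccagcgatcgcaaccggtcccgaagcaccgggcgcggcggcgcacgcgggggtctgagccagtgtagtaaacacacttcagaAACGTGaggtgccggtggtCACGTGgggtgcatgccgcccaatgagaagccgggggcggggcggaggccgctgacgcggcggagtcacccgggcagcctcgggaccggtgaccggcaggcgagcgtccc
Cry2, chr2:92434020-92434319, minus strand: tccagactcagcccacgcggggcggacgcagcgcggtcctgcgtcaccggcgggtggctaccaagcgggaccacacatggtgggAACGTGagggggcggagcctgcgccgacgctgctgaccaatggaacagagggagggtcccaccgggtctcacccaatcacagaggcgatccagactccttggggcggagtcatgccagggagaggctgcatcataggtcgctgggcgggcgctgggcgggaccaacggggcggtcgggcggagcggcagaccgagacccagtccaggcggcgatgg
Per3, chr4:151044616-151044915, minus strand: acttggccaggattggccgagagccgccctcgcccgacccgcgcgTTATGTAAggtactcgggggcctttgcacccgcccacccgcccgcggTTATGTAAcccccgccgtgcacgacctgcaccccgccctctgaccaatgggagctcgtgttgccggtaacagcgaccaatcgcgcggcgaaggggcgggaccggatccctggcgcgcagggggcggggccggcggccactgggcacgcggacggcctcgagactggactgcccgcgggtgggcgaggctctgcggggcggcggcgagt
The Ciart window held 3 E-boxes, starting at positions -116, -58 and -44 from the transcript's start. The Per1 window shown held 1 E-box at -166, and a second Per1 window (chr11:69099902-69100201) held none of the motifs. In Cry1, an E-box at -60 followed a variant E-box at -79, and Cry2 had a variant E-box at -166. Per3 held no E-box but 2 D-boxes, at -205 and -158, and none of the motifs was found in 4 windows of Csnk1e. Of 32851 such windows genome-wide, 7.15% held the E-box, 4.68% the variant, 1.79% the cAMP response element and 1.06% a D-box. A match describes the letters of a window and does not show binding.

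After cell filters, 3978 Empty vector cells (median 5094 UMIs, or unique molecular identifiers, each standing for 1 captured transcript) and 2386 Bmal1 WT cells (median 7570.5) were kept, and 5 barcodes occurred in both libraries. Cells were put into classes by marker genes, none of which is a member. The gate left 516 Empty vector cells and 315 Bmal1 WT cells without a class, and a further 143 and 351 barcodes with under 0.5% mitochondrial UMIs were kept out of all classes. In 6 classes every replicate held at least 3 cells. Melanoma-like cells numbered 79 in Empty vector and 192 in Bmal1 WT, fibroblast-like cells 136 and 210, T-cell-like 999 and 330, NK-cell-like 1111 and 418, macrophage- or monocyte-like 647 and 353, and dendritic-cell-like 316 and 189. No hashtag was called on 35.4% and 59.4% of melanoma-like cells and 70.6% and 77.1% of fibroblast-like cells. The thinnest sum was that of Empty vector replicate 2 in melanoma-like cells, with 5 cells and 73395 UMIs, against up to 3119537 UMIs in that class. Of the 11 melanoma markers, the summed level ran from 1444 to 2600 CPM (UMIs of a gene per 1000000 UMIs counted) in Empty vector and from 927 to 1717 in Bmal1 WT replicates, with the pigment genes Mlana and Tyrp1 at 0 in both. Pmel and Dct were also at 0 in Empty vector. NK cell markers summed to between 23.0 and 196 CPM in melanoma-like cells, against 8711 to 11727 in NK-cell-like cells. Fibroblast markers summed to between 81.7 and 335 CPM in melanoma-like cells, against 6233 to 16092 in fibroblast-like cells. Endothelial markers summed to between 38.5 and 136 CPM in melanoma-like cells. Arntl, which encodes Bmal1, stood in melanoma-like cells at 78.7 CPM ± 38.0 (SD, n = 3) for Empty vector and 57.9 ± 11.1 for Bmal1 WT (-0.17 ± 0.33 SE on the log2 scale, with an edgeR adjusted p near 1). The Empty vector mean was raised by replicate 2, the thinnest sum, at 123 CPM, and the median of all 6 replicates was 59.8. A higher Arntl level in the library labelled Bmal1 WT was thus not seen, and these counts do not check the group labels. Whether 3' counts read the introduced Bmal1 was not tested. Group names below are those of the labels.

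The clearest pattern was between cell classes. Levels are given as CPM, and each class was compared with the mean of the other 5 classes within replicates. Of all 11671 genes tested, 61.8% passed the threshold in melanoma-like, 45.8% in fibroblast-like, 56.7% in T-cell-like, 53.7% in NK-cell-like, 63.4% in macrophage- or monocyte-like and 48.1% in dendritic-cell-like cells, so a call here is common. The members called were 6, 4, 3, 3, 6 and 5 of 8 in the same order. In dendritic-cell-like cells 2 were higher, where 22.8% of all genes were, and 3 lower, where 25.3% were. Medians of the log2 difference over all genes were 0.17, 0.036, 0.18, 0.018, -0.36 and -0.14, and the scaling by total UMIs carries these offsets. Where classes are said below not to overlap, the share of all genes for which this holds was not computed.

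**Figure D1:**
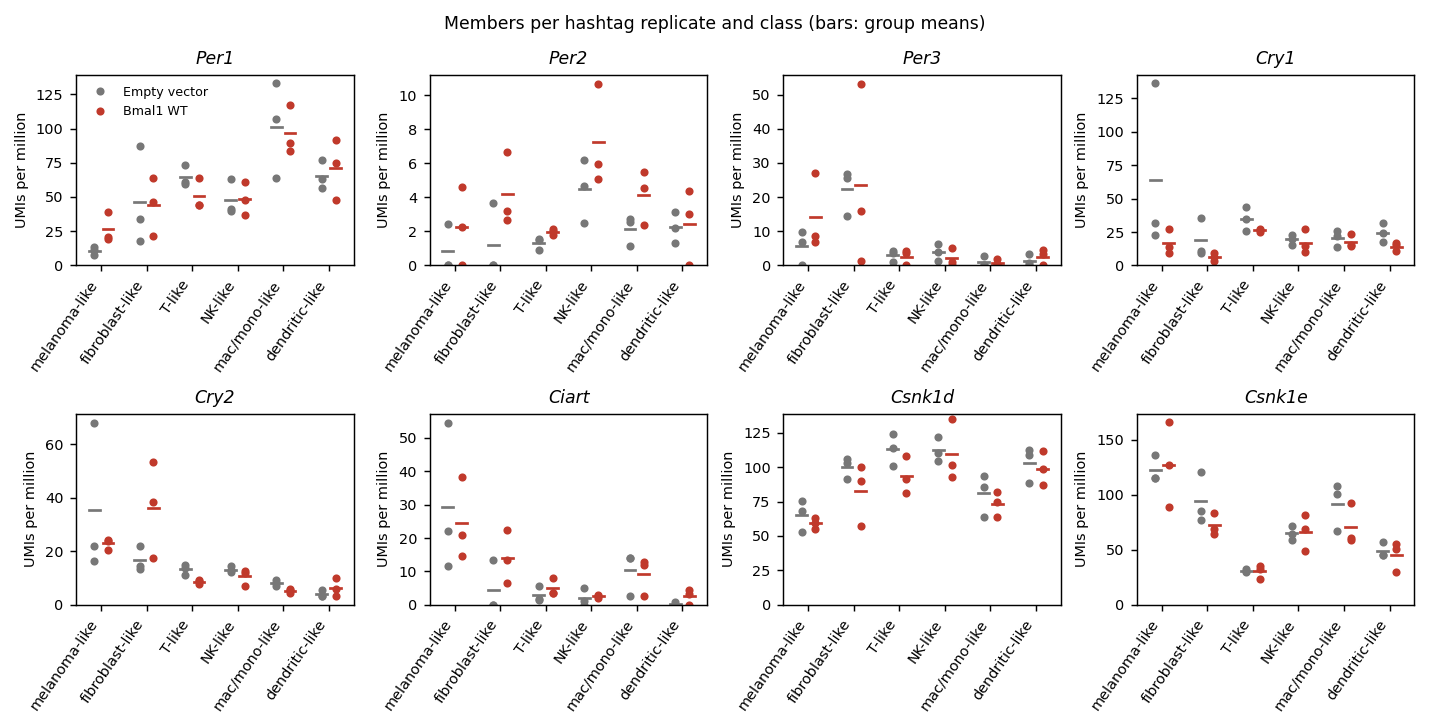
Each point is the level of a member in 1 hashtag replicate of 1 class (y axis, CPM; x axis, class), in grey for Empty vector and red for Bmal1 WT, with bars at group means of 3 replicates. By class mean, Per1 lies lowest in melanoma-like and highest in macrophage- or monocyte-like cells, and Csnk1e highest in melanoma-like and lowest in T-cell-like cells. The class means of Per3 and Cry2 lie higher in fibroblast- and melanoma-like cells than in myeloid classes, but single replicates of Per3 overlap.

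Per1 was the most abundantly counted PER gene. Its level was 99.1 ± 25.0 (SD, n = 6, range 64.1 to 133) in macrophage- or monocyte-like cells, then 68.3 in dendritic-cell-like, 57.8 in T-cell-like, 48.3 in NK-cell-like, 45.2 in fibroblast-like and 18.7 ± 11.2 (7.54 to 39.2) in melanoma-like cells. Each class overlapped its neighbour in that order, but every macrophage- or monocyte-like replicate lay above every melanoma-like one. The log2 difference was 1.19 ± 0.17 (SE, edgeR adjusted p = 3.49e-07) in macrophage- or monocyte-like and -1.71 ± 0.24 (edgeR adjusted p = 1.87e-07) in melanoma-like cells. In dendritic-cell-like cells Per1 was also higher (0.53 ± 0.18, edgeR adjusted p = 0.0171), a call lost under the stricter marker gate (0.30, adjusted p = 0.313) and without Bmal1 WT replicate 2 (0.0664).

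Immediate early and dissociation-related genes did not follow Per1 in every class. In macrophage- or monocyte-like cells 10 of the 11 genes of that list were called higher and none lower (median log2 difference 1.83), against 22.3% of all genes called higher there. In melanoma-like cells 2 were higher and 7 lower (median -0.60), against 22.9% of all genes called lower. In T-cell-like cells 3 were higher and 6 lower (median -1.91) and in NK-cell-like cells 2 were higher and 8 lower (median -1.36), while Per1 had log2 differences of 0.28 ± 0.18 and -0.064 ± 0.19 there and was not called. Among all genes, 37.6% were higher and 19% lower in T-cell-like cells, and 29.2% and 24.4% in NK-cell-like cells. In dendritic-cell-like cells 4 list genes were higher and 1 lower (median 0.29), and in fibroblast-like cells 5 and 4 (median 0.10). Of all genes, 22.8% were higher and 25.3% lower in dendritic-cell-like cells, and 27.6% and 18.1% in fibroblast-like cells. Fos, an immediate early transcription factor, averaged 2645 CPM in macrophage- or monocyte-like and 389 in melanoma-like cells. Glucocorticoid-responsive genes were called higher in 5 of 6 cases in macrophage- or monocyte-like cells (median 1.88) and lower in 2 of 6 in melanoma-like cells (median -1.41), the latter near the 22.9% of all genes. Over the 12 sums of class and library, the genes with levels most like those of Per1 were Pou2f2 (Pearson r = 0.958), Samhd1 (0.948) and Dusp1 (0.947), a phosphatase of the glucocorticoid-responsive list. The part of either list in the level of Per1 was not tested.

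Per2 was sparse, with 168 UMIs over all cells of the 6 classes. NK-cell-like replicates held 50 UMIs and a level of 5.86 ± 2.71 (SD, n = 6), against 3.14 in macrophage- or monocyte-like cells and 1.55 in melanoma-like cells. The log2 difference of 1.45 ± 0.35 passed the test (edgeR adjusted p = 0.000729), although NK-cell-like replicates, at 2.52 to 10.7, overlapped the macrophage- or monocyte-like range of 1.17 to 5.47.

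Per3 was found mainly outside the immune classes. Its level was 22.9 ± 17.5 (SD, n = 6) in fibroblast-like and 9.84 ± 9.04 in melanoma-like cells, while the 4 immune classes averaged between 0.84 and 2.96. The fibroblast-like values were uneven, from 1.33 in Bmal1 WT replicate 2 to 53.2 in replicate 3, and rested on 38 UMIs. The log2 difference was 2.89 ± 0.51 (edgeR adjusted p = 1.75e-05) in fibroblast-like and 1.86 ± 0.45 (edgeR adjusted p = 0.000642) in melanoma-like cells, and -2.82 ± 0.71 (edgeR adjusted p = 0.000986) in macrophage- or monocyte-like cells, where 5 UMIs were counted. The whole of Per3 (chromosome 4, 151003652 to 151044665, GRCm38) lies within the span of Camta1 on the same strand, so reads of the 2 genes could be confused. Camta1 was higher in fibroblast-like cells (0.84 ± 0.19, edgeR adjusted p = 0.000368), but its value in melanoma-like cells was -0.21 ± 0.17 (edgeR adjusted p = 0.293).

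The cryptochromes followed different orders. Cry1 was called higher in T-cell-like cells, at 30.5 ± 7.28 (SD, n = 6, range 25.0 to 43.5) against 18.3 in NK-cell-like cells (log2 difference 0.73 ± 0.22, edgeR adjusted p = 0.00480). The highest mean of Cry1, 40.2 in melanoma-like cells, rested on Empty vector replicate 2, where 10 UMIs in 5 cells gave 136, and the median of that class was 25.1 (log2 difference 0.47 ± 0.24, edgeR adjusted p = 0.0944). This difference was called under the stricter marker gate (0.0178), the wider melanoma gate (0.0213), with mitochondria-poor barcodes gated (0.0417), without Empty vector replicate 1 (0.0364) and without Bmal1 WT replicate 3 (0.0319). Its low fibroblast-like level, 12.6 ± 11.6 from 22 UMIs, was called (-0.97 ± 0.37, edgeR adjusted p = 0.0327), but not without Empty vector replicate 3 or any 1 Bmal1 WT replicate (adjusted p from 0.0601 to 0.195).

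Cry2 was higher in both non-immune classes, at 29.2 ± 19.3 in melanoma-like and 26.5 ± 16.0 in fibroblast-like cells, against 5.15 ± 2.61 in dendritic-cell-like and 6.69 ± 1.81 in macrophage- or monocyte-like cells (SD, n = 6 each). The log2 differences were 1.14 ± 0.22 (edgeR adjusted p = 3.24e-05), 1.39 ± 0.27 (5.83e-05), -1.47 ± 0.28 (4.49e-05) and -0.94 ± 0.25 (0.00156) in that order. Every melanoma-like replicate, from 16.5 upward, lay above every dendritic-cell-like and macrophage- or monocyte-like replicate, which reached 9.86 and 9.35. The highest melanoma-like value, 68.1, came from Empty vector replicate 2, with 5 cells and 73395 UMIs. Medians were 23.0 in melanoma-like and 19.6 in fibroblast-like cells.

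Ciart was highest in melanoma-like cells, at 27.0 ± 16.3 (SD, n = 6, range 11.7 to 54.5, median 21.5). Its highest value there came from Empty vector replicate 2, the thinnest sum. The lowest mean was that of dendritic-cell-like cells, at 1.43 ± 1.97 with 7 UMIs. The log2 difference was 2.40 ± 0.39 (edgeR adjusted p = 2.61e-06) in melanoma-like and -2.55 ± 0.65 (edgeR adjusted p = 0.00158) in dendritic-cell-like cells. Macrophage- or monocyte-like cells held 9.70 ± 5.46 (1.24 ± 0.40, edgeR adjusted p = 0.00731), a call lost without Empty vector replicate 1 (adjusted p = 0.050004) or replicate 3 (0.0894). In NK-cell-like cells Ciart was lower (-1.52 ± 0.57, edgeR adjusted p = 0.0255), a call lost without Empty vector replicate 1 or 3 or Bmal1 WT replicate 1 or 3 (adjusted p from 0.0583 to 0.0885). The antisense gene C920021L13Rik, which overlaps all of Ciart on the other strand, had 112 UMIs over the 6 classes against 562 of Ciart, and 13 UMIs against 143 in melanoma-like replicates.

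The kinase genes were the most abundantly counted members and ran in opposite directions. Csnk1e had 125 ± 25.9 CPM (SD, n = 6, range 88.8 to 166) in melanoma-like and 30.7 ± 4.06 (23.5 to 35.4) in T-cell-like cells, with no overlap. The log2 difference was 1.10 ± 0.12 (edgeR adjusted p = 1.18e-09) in melanoma-like, 0.44 ± 0.12 (0.00182) in macrophage- or monocyte-like, -0.58 ± 0.13 (0.000506) in dendritic-cell-like and -1.32 ± 0.14 (1.31e-09) in T-cell-like cells. Csnk1d was lowest in melanoma-like cells, at 62.3 ± 8.47 (52.8 to 75.4), and highest in NK-cell-like cells, at 111 ± 15.1 (92.8 to 135), again with no overlap. Its log2 difference was -0.63 ± 0.11 (edgeR adjusted p = 6.80e-06) and 0.37 ± 0.095 (0.00156). The smaller Csnk1d differences depended on scaling: in macrophage- or monocyte-like cells -0.24 ± 0.098 (edgeR adjusted p = 0.0359) became 0.069 with TMM factors and 0.025 with DESeq2, and in T-cell-like cells 0.27 ± 0.095 (0.0171) lost its call under both (0.14 and 0.13). The first was also lost without Empty vector replicate 2 or Bmal1 WT replicate 1 or 2 (adjusted p from 0.0602 to 0.128), and the second without Empty vector replicate 2 or 3 or Bmal1 WT replicate 1 (from 0.0613 to 0.0857). In dendritic-cell-like cells Csnk1d had 0.23 ± 0.096 (0.0452), not called without Empty vector replicate 1 or 3 or Bmal1 WT replicate 1 or 2 (from 0.0774 to 0.171). Csnk1e in fibroblast-like cells had 0.38 ± 0.15 (0.0374), not called with TMM factors (0.211), by DESeq2 (0.0537), under the stricter marker gate (0.0587), with mitochondria-poor barcodes gated (0.0568), or without Empty vector replicate 1 or 2 or Bmal1 WT replicate 1 (from 0.0505 to 0.213).

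**Figure D2:**
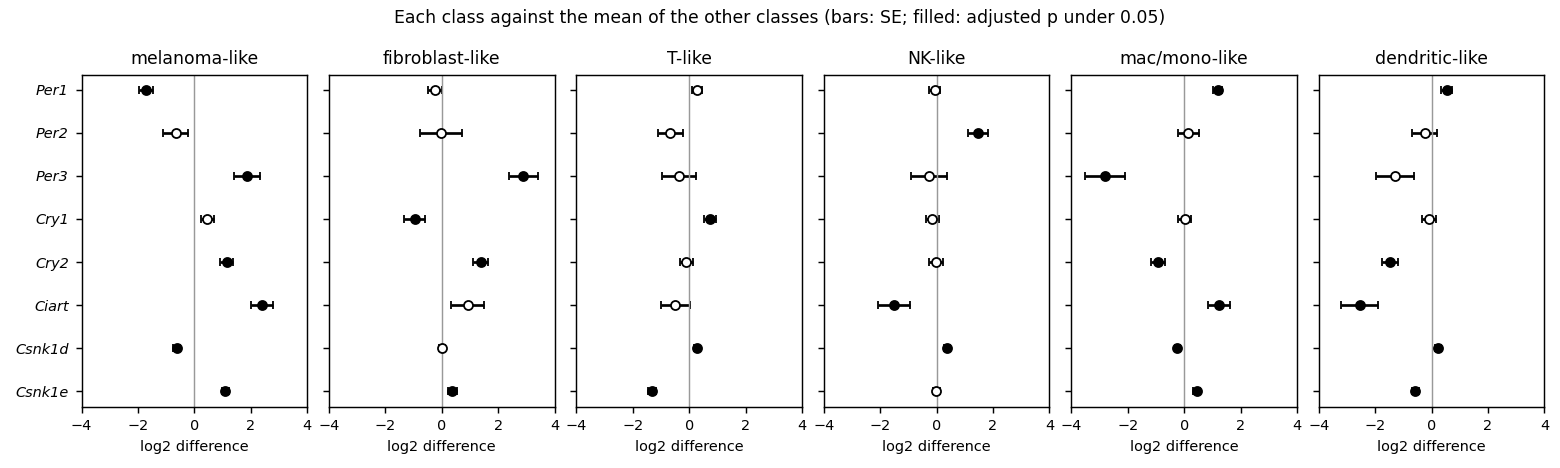
Points give the log2 difference (x axis) of each member (y axis) between a class and the mean of the other 5 classes, bars its SE, and filled points an edgeR adjusted p under 0.05. In melanoma-like cells Ciart, Per3, Cry2 and Csnk1e lie to the right, and Per1 and Csnk1d to the left.

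Over the same 12 sums, Per3 and Cry2 had a Pearson r of 0.87, Ciart and Csnk1e of 0.73, and Ciart and Csnk1d of -0.89. These points share libraries and cell classes, and the values are descriptive. The genes most like Csnk1e were Ctbp2 (0.957), Anxa2 (0.956) and Sypl (0.946), those most like Csnk1d H2-Q6 (0.970), Fam168b (0.970) and H2-Q7 (0.967), of which the H2-Q genes are close paralogs that can share reads, and those most like Ciart Emp3 (0.970), Gde1 (0.952) and Sar1b (0.952). Per3 was followed by Gtf3c4 (0.978), Dcbld2 (0.974) and Ergic1 (0.974), Cry2 by Rbm18 (0.974), Klhl22 (0.969) and Klhl7 (0.968), Cry1 by Tmc6 (0.869), Ppp6c (0.837) and Hnrnpc (0.796), and Per2 by Khdc1a (0.771), Elmo2 (0.756) and Klra8 (0.704).

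Other clock lists gave a background for the class pattern. Of the 5 REV-ERB and ROR nuclear receptors 4 were tested, and all 4 were called higher in melanoma-like and in fibroblast-like cells (median log2 difference 2.40 and 2.42). In T-cell-like cells 1 of these 4 was called higher. None of the 4 was called higher in NK-cell-like, macrophage- or monocyte-like or dendritic-cell-like cells. Among all genes, 27.6% were higher and 18.1% lower in fibroblast-like cells, while 29.2% were higher in NK-cell-like and 22.8% in dendritic-cell-like cells. Among the output bZIP factors 3 of 4 were higher in melanoma-like cells and 1 lower. Of the 18 tested genes, among 19 listed, for PER and CRY turnover and complexes, 8 were higher and 3 lower in melanoma-like cells, 11 and 1 in T-cell-like cells, and 2 and 11 in macrophage- or monocyte-like cells, where the median of all genes was itself -0.36. Of all genes, 38.9% were higher and 22.9% lower in melanoma-like, 37.6% and 19% in T-cell-like, and 22.3% and 41.1% in macrophage- or monocyte-like cells, so the melanoma-like counts lay near the background. Of the 4 clock activators 2 were tested, of which 1 was higher in melanoma-like, 2 in fibroblast-like and 1 in T-cell-like cells. In macrophage- or monocyte-like cells 1 of them was lower, and in dendritic-cell-like cells 2. Of the DEC repressors Bhlhe40 and Bhlhe41, 1 was higher and 1 lower in melanoma-like and in fibroblast-like cells.

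The second question was whether members differed between Bmal1 WT and Empty vector within a class. No member tested passed the threshold in any class. A gene needed 100 or more UMIs, summed over 6 replicates, to be tested, which admitted 6 members in melanoma-like, 2 in fibroblast-like, 4 in T-cell-like, 4 in NK-cell-like, 5 in macrophage- or monocyte-like and 4 in dendritic-cell-like cells. Over all genes edgeR called 0% of 7734, 3482, 7322, 7077 and 6671 genes in melanoma-, fibroblast-, NK-cell-, macrophage- or monocyte- and dendritic-cell-like cells, and 2.12% of 7817 in T-cell-like cells. At an unadjusted p under 0.05 there were 225, 279, 863, 1036 and 938 genes in the first 5, and DESeq2 called 4, 20, 92, 82 and 66.

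Per1 in melanoma-like cells had the largest difference among members. Its levels were 11.5, 13.6 and 7.54 CPM in Empty vector replicates and 20.9, 19.6 and 39.2 in Bmal1 WT replicates. All Bmal1 WT values lay above all Empty vector values, as for 8.87% of genes tested in this class, in either direction, although the value of 13.6 stood for 1 UMI. The log2 fold change was 1.45 ± 0.46 (SE, edgeR adjusted p near 1). It ran from 1.18 to 1.70 with 1 replicate left out and from 0.48, when every cell weighed the same, to 2.06, under the stricter marker gate, over the other alternatives. The effect in melanoma-like minus that in all immune cells was 1.55 ± 0.39 (edgeR adjusted p = 0.478 for the interaction, where 0.0175% of 11443 genes were called).

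Cells with no hashtag did not show this difference. In them Per1 stood at 27.2 CPM in 28 Empty vector cells (24 UMIs) and 27.6 in 114 Bmal1 WT cells (109 UMIs), a log2 ratio of 0.02 (95% counting interval -0.63 to 0.72). Of the 28 Empty vector cells, 1 held 234164 UMIs, against a median of 24502, and its part in the Per1 level was not tested. In cells with 1 hashtag the ratio was 1.39 (0.78 to 2.06, from 26 and 124 UMIs). The Empty vector level was thus 9.45 in cells with a hashtag and 27.2 in cells without one, while the Bmal1 WT levels were 24.8 and 27.6. Of the 124 UMIs in Bmal1 WT, 24 came from 1 cell. Immediate early genes had positive values in the hashtagged cells too: Fos had a log2 fold change of 1.21 ± 0.29, Fosb of 1.23 ± 0.37 and Ier3 of 0.56 ± 0.22 (edgeR adjusted p near 1 each). Of the 11 list genes 9 were positive and 2 negative (median 0.39, all genes -0.0084). Their part in the Per1 value was not tested.

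**Figure D3:**
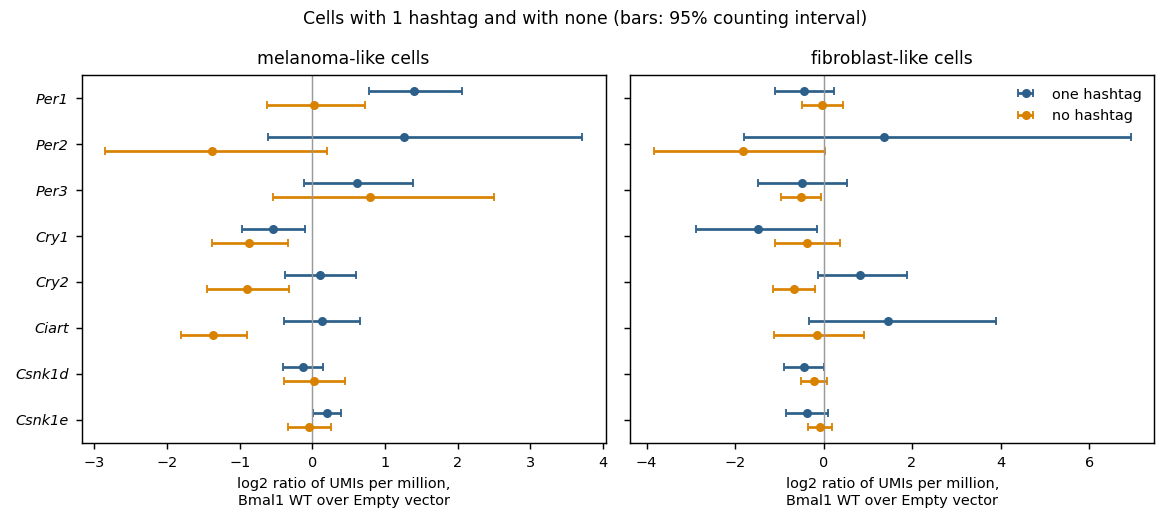
Points give the log2 ratio of CPM in Bmal1 WT over Empty vector (x axis) for each member (y axis), in blue for cells with 1 hashtag and in orange for cells with none, with bars for the 95% counting interval. In melanoma-like cells the points of Per1 (1.39 with a hashtag and 0.02 without), Ciart (0.13 and -1.36) and Cry2 (0.10 and -0.90) lie apart. So do those of Per2, from only 3 Empty vector and 13 Bmal1 WT UMIs with a hashtag and 7 and 12 without.

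Ciart likewise had a lower ratio without a hashtag than with 1, but through 1 cell. With 1 hashtag its level was 17.4 in Empty vector and 19.0 in Bmal1 WT melanoma-like cells (log2 ratio 0.13, -0.39 to 0.66), and replicates ran from 11.7 to 54.5 and from 14.7 to 38.3 (log2 fold change 0.20 ± 0.56, edgeR adjusted p near 1). Without a hashtag it was 74.9 and 29.1 (log2 ratio -1.36, -1.81 to -0.91). Of the 66 Empty vector UMIs behind that value, 47 came from 1 cell with 24604 UMIs in all. Without that cell the level was 22.2 and the ratio 0.39 (-0.32 to 1.17), so the value rested on it. Counting intervals treat UMIs as independent and do not cover such differences between cells.

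Cry1 had lower values in Bmal1 WT in both kinds of melanoma-like cell. Its levels were 23.0, 136 and 31.5 CPM in Empty vector replicates and 13.9, 27.2 and 9.23 in Bmal1 WT replicates, which overlapped (log2 fold change -1.18 ± 0.65, edgeR adjusted p near 1). Without a hashtag the log2 ratio was -0.88 (-1.39 to -0.34, from 45 and 110 UMIs). In dendritic-cell-like cells the 24.1, 31.7 and 17.4 of Empty vector lay above the 10.5, 15.3 and 16.5 of Bmal1 WT, without overlap, as for 21.1% of genes tested there (log2 fold change -0.80 ± 0.32, edgeR adjusted p = 0.320). The fold change was -0.15 when every cell weighed the same. In T-, NK- and macrophage- or monocyte-like cells the log2 fold changes of Cry1 were -0.38 ± 0.23, -0.19 ± 0.33 and -0.34 ± 0.30, with edgeR adjusted p of 0.360, 0.869 and 0.631.

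Cry2 in melanoma-like cells ran from 16.5 to 68.1 in Empty vector and from 20.5 to 24.4 in Bmal1 WT (log2 fold change -0.07 ± 0.47, edgeR adjusted p near 1). Its log2 ratio in cells without a hashtag was -0.90 (-1.45 to -0.32, from 39 and 94 UMIs), and -1.14 (-1.72 to -0.53) without the Empty vector cell with the highest count, 5 of the 39 UMIs. With a hashtag it was 0.10 (-0.38 to 0.59, from 56 and 109 UMIs). In fibroblast-like cells the hashtagged and untagged ratios of Cry2 were 0.82 (-0.13 to 1.89, from 12 and 41 UMIs) and -0.68 (-1.15 to -0.19, from 61 and 97 UMIs).

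Per2 and Per3 were too sparse in melanoma-like cells for the test. Per2 had 3, 0 and 0 UMIs with Empty vector and 0, 7 and 6 in Bmal1 WT replicates. Without a hashtag it stood at 7.94 CPM in Empty vector and 3.03 in Bmal1 WT, from 7 and 12 UMIs. Per3 had 9.84, 0 and 6.85 CPM with Empty vector and 8.70, 6.73 and 26.9 in Bmal1 WT, and its log2 ratio was 0.61 (-0.11 to 1.39) with a hashtag and 0.80 (-0.55 to 2.50) without. In fibroblast-like cells, where Per3 was highest, the ratio was -0.49 (-1.49 to 0.54) with a hashtag and -0.51 (-0.96 to -0.05) without, from 65 and 116 UMIs in the latter.

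The kinase genes had the narrowest errors. In melanoma-like cells Csnk1d stood at 65.4 ± 11.6 (SD, n = 3) with Empty vector and 59.1 ± 3.98 with Bmal1 WT (log2 fold change -0.13 ± 0.27), and Csnk1e at 122 ± 12.3 and 127 ± 38.7 (0.11 ± 0.28), with edgeR adjusted p near 1 for both. Without a hashtag their log2 ratios were 0.02 (-0.39 to 0.45) and -0.04 (-0.33 to 0.26). For Csnk1e, 48 of the 119 Empty vector UMIs came from 1 cell with 234164 UMIs in all, and the ratio without it was 0.26 (-0.10 to 0.64). The untagged Empty vector cells with most Cry1 and Cry2 UMIs had the same total. Across the other 5 classes the log2 fold changes lay between -0.31 and -0.056 for Csnk1d and between -0.37 and -0.068 for Csnk1e, and none passed the test. All 10 were negative, with class medians over all genes between -0.10 and -0.047.

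**Figure D4:**
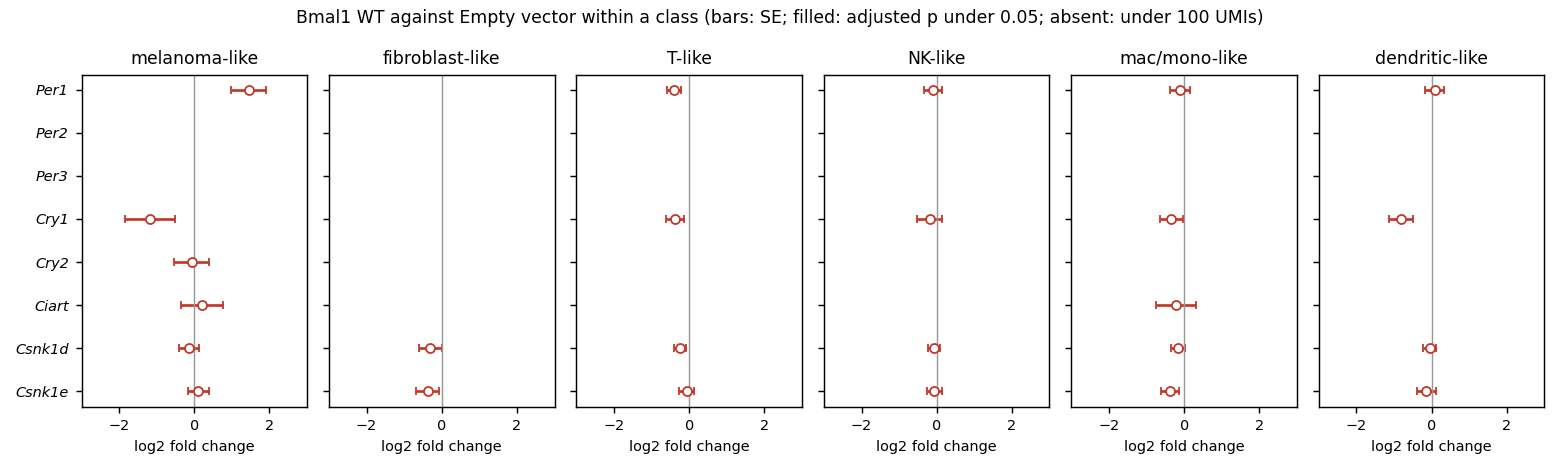
Points give the log2 fold change of Bmal1 WT over Empty vector (x axis) for members with at least 100 UMIs in a class (y axis), with bars for the SE, and open points had an edgeR adjusted p above 0.05. Per1 in melanoma-like cells, at 1.45, lies farthest to the right, and Cry1 in melanoma-like cells, at -1.18, farthest to the left.

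In the immune classes Per1 had log2 fold changes of -0.41 ± 0.19 in T-cell-like, -0.097 ± 0.24 in NK-cell-like, -0.11 ± 0.26 in macrophage- or monocyte-like and 0.088 ± 0.25 in dendritic-cell-like cells (edgeR adjusted p from 0.233 to 0.911). Groups did not overlap for 27.8%, 17.7%, 20.9% and 21.1% of genes in those 4 classes and 14.2% in fibroblast-like cells, and for no tested member there but Cry1 in dendritic-cell-like cells. In T-cell-like cells, where Empty vector replicates held 73.6, 61.1 and 59.8 and Bmal1 WT replicates 44.2, 44.5 and 63.7, 2 of the 11 immediate early and dissociation genes, Egr1 and Junb, were called lower in Bmal1 WT (edgeR adjusted p = 0.0287 and 0.0429). Both calls were lost without Empty vector replicate 1 or 2 or Bmal1 WT replicate 2 or 3 (adjusted p from 0.0718 to 0.126) and under the stricter marker gate (0.0564 and 0.0619), and that of Junb without Bmal1 WT replicate 1 (0.0653). Of all 7817 genes tested in T-cell-like cells, 53 were called lower. Of the 11 list genes there, 9 had negative and 2 positive values (median -0.71, all genes -0.090). Summed over all cells, Per1 was 61.5 CPM in Empty vector and 42.3 in Bmal1 WT (log2 ratio -0.54), opposite in sign to its ratio of 0.99 over all melanoma-like cells. Csnk1e was 75.3 and 98.2 (0.38), Ciart 9.14 and 14.7 (0.68) and Per3 5.01 and 9.14 (0.87) over all cells, and the libraries differed in their shares of the classes.

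Of the other clock genes in melanoma-like cells, none passed the test. Nr1d1, which encodes the repressor REV-ERB alpha, had 10.7, 13.6 and 8.91 CPM with Empty vector and 54.0, 20.8 and 60.8 in Bmal1 WT (log2 fold change 2.13 ± 0.51, edgeR adjusted p near 1). The value of 13.6 came from Empty vector replicate 2, the thinnest sum, with 5 cells and 73395 UMIs. Nr1d2 had 0.95 ± 0.46 and Rora -0.42 ± 0.30, Clock 0.38 ± 0.28, and the output factors Tef 0.27 ± 0.38, Dbp 0.13 ± 0.51 and Nfil3 -0.078 ± 0.43. Bhlhe40 had -0.79 ± 0.39 and Bhlhe41 0.43 ± 0.76. Of 17 tested genes for PER and CRY turnover and complexes, 6 were positive and 11 negative (median -0.020, all genes -0.0084), with Tipin at 0.96 ± 0.51, Sfpq at 0.46 ± 0.25 and Gsk3b at -0.34 ± 0.21. Glucocorticoid-responsive Fkbp5 had 0.70 ± 0.29, Tsc22d3 -0.75 ± 0.53 and Klf9 -0.25 ± 0.35.

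Members were also counted in the barcodes nearly without mitochondrial UMIs. Their levels in Empty vector and Bmal1 WT were 14.0 and 15.8 for Per1, 53.0 and 38.9 for Cry1, 23.4 and 18.2 for Cry2, 42.1 and 19.2 for Ciart, 104 and 73.4 for Csnk1d, and 139 and 159 for Csnk1e. For Ciart, with 27 and 40 UMIs, the log2 ratio was -1.13 (-1.87 to -0.37). For Csnk1d it was -0.51 (-0.93 to -0.07). These barcodes had a median of 2119 and 2314 UMIs, and no hashtag was called on 69.2% and 72.4% of them.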

How the data were processed

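Single-cell libraries (10x Genomics, 3' v3.1 chemistry) of Empty vector and Bmal1 WT cells were used as UMI counts per gene and barcode, with hashtag counts. The authors deposited these raw counts as matrices made with Cell Ranger 6.1.2, per the file headers, on mm10, per the submitters' processing notes. No source used here says how strand was handled in counting. The Bmal1 bHLH matrices as given hold the same values as the Bmal1 WT ones and were left out.

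Barcodes with at least 200 genes and at most 20% mitochondrial UMIs were kept. Hashtags were called with a 2-component Gaussian mixture (scikit-learn 1.9.0), and cells with several hashtags entered no replicate. No doublet caller was run. A class needed at least 2 of its markers, summed markers 2-fold over their share in cells of other classes, and a margin of 1.5 over the next class. This gate was set after the values were seen, as was keeping barcodes with under 0.5% mitochondrial UMIs apart. Members and gene lists were chosen with earlier results of these data known. Replicate numbers name hashtags and pair no samples across groups.

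Counts were summed per hashtag and class and tested with edgeR 4.0.16 (quasi-likelihood, library totals, genes with at least 100 UMIs, Benjamini-Hochberg adjustment, threshold 0.05) in R 4.3.3. Classes were compared with the replicate as a block. SE is the log2 fold change divided by the root of F. The code was tested on simulated data. Counting intervals (95%, exact conditional) cover counting error only. Alternatives were TMM scaling, DESeq2 1.42.0, no gene filter, other cell filters, gates and hashtag calls, equal cell weights (limma 3.58.1), no replicate block and leaving out each replicate. A wider melanoma gate and gating of mitochondria-poor barcodes were added after seeing the data. Besides the members, the text names the genes of fixed clock, glucocorticoid and immediate early lists by a fixed rule (the 3 smallest p-values per list for Bmal1 WT against Empty vector in melanoma-like cells), and the 3 genes most like each member. Egr1 and Junb were named after their values were seen, and genes overlapping a member for their position. CPM is counts per 1000000 UMIs of the same sum.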

Additional observations from a re-analysis of the deposited data

How the results depend on the processing

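Of 426 fits of a member between Bmal1 WT and Empty vector, over all classes and settings, 0 gave a call, and 11 of them, all by DESeq2, had no adjusted p. Per2 and Per3 had no fit with the 100 UMI filter as used in the report, and Cry2 had one in melanoma-like cells only. Counts of all genes called moved: DESeq2 called 4, 20, 258, 92, 82 and 66 and no gene filter gave 46, 178, 843, 133, 244 and 261 in melanoma-, fibroblast-, T-cell-, NK-cell-, macrophage- or monocyte- and dendritic-cell-like cells. Equal cell weights gave 1, 3 and 15 in fibroblast-, NK-cell- and dendritic-cell-like cells, the stricter gate 42 in T-cell-like, no cell filter 3 in NK-cell-like and centred log hashtags 2 in macrophage- or monocyte-like cells. With 1 replicate left out the counts ran from 0 to 1 in fibroblast-like, 0 to 178 in T-cell-like, 0 to 33 in NK-cell-like, 0 to 4 in macrophage- or monocyte-like and 0 to 1 in dendritic-cell-like cells, and from 0 to 6 for the interaction. The causes were not tested.

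Log2 fold changes of Bmal1 WT over Empty vector that changed sign, none of them called, were in melanoma-like cells Cry2 (0.25 with the stricter cell filter, 0.079 with the stricter gate), Ciart (-0.27 with centred log hashtags, -0.084 with mitochondria-poor barcodes gated), Csnk1d (0.12 with the wider gate) and Csnk1e (-0.021 with centred log hashtags). In fibroblast-like cells equal cell weights gave 0.080 for Csnk1d and 0.068 for Csnk1e. Csnk1e in T-cell-like cells had 0.0024 with TMM, 0.017 with DESeq2 and 0.064 with equal weights. In NK-cell-like cells Per1 had 0.044 with DESeq2 and 0.084 with equal weights, Csnk1d 0.018 with TMM and 0.029 with DESeq2, and Csnk1e 0.019, 0.058 and 0.013 with TMM, DESeq2 and equal weights. Csnk1d in dendritic-cell-like cells had 0.039 with TMM and 0.038 with DESeq2.

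Among class differences, dropping the replicate block ended only the calls of Csnk1d in macrophage- or monocyte-like (adjusted p = 0.0599) and dendritic-cell-like cells (0.0683). Signs changed for Per2 in fibroblast-like cells (0.13 without the block, 0.38 with mitochondria-poor barcodes gated), Csnk1d there (-0.14, -0.016, -0.00054 and -0.036 with TMM, DESeq2, no block and mitochondria-poor barcodes gated), Csnk1e in NK-cell-like cells (0.043, stricter gate), Cry1 in macrophage- or monocyte-like cells (-0.021 without the block, -0.0080 with the wider gate, -0.014 with mitochondria-poor barcodes gated), Csnk1d there (0.069 with TMM, 0.025 with DESeq2) and Cry1 in dendritic-cell-like cells (0.048 with TMM, 0.020 with DESeq2).

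With 1 replicate left out, the Bmal1 WT fold changes that changed sign ran in melanoma-like cells from -0.45 to 0.24 for Cry2, -0.29 to 0.46 for Ciart, -0.31 to 0.065 for Csnk1d and -0.13 to 0.30 for Csnk1e, in T-cell-like cells from -0.17 to 0.12 for Csnk1e, in NK-cell-like cells from -0.54 to 0.063 for Cry1, -0.24 to 0.17 for Per1, -0.19 to 0.014 for Csnk1d and -0.20 to 0.19 for Csnk1e, in macrophage- or monocyte-like cells from -0.47 to 0.075 for Ciart and -0.33 to 0.13 for Per1, and in dendritic-cell-like cells from -0.12 to 0.33 for Per1, -0.15 to 0.023 for Csnk1d and -0.33 to 0.11 for Csnk1e. Class differences ran from -0.25 to 0.17 for Per2, -0.53 to 0.010 for Per1 and -0.043 to 0.11 for Csnk1d in fibroblast-like cells, from -0.081 to 0.095 for Cry2, -0.80 to 0.087 for Per3, -0.32 to 0.041 for Cry1, -0.21 to 0.038 for Per1 and -0.052 to 0.014 for Csnk1e in NK-cell-like cells, and from -0.13 to 0.16 for Cry1 in macrophage- or monocyte-like cells. The interaction ran from -0.58 to 0.23 for Per2, -0.065 to 0.58 for Cry2, -0.39 to 0.75 for Ciart, -0.14 to 0.26 for Csnk1d and -0.014 to 0.38 for Csnk1e. Depth limits Per2, Per3 and Ciart most.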

Other observations

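Cells that the marker gate left without a class held members too. In the 516 Empty vector and 315 Bmal1 WT cells of this kind, Per1 stood at 66.5 and 35.9 CPM (log2 ratio -0.89, 95% counting interval -1.13 to -0.65), Per3 at 2.08 and 9.90 (2.25, 1.30 to 3.37), Ciart at 10.6 and 25.0 (1.24, 0.79 to 1.71) and Csnk1e at 80.4 and 126 (0.65, 0.47 to 0.82). No hashtag was called on 6.01% and 31.1% of these cells. What cells they are was not tested.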
